A study of Homo sapiens with 20 samples.

Results

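The long noncoding RNA genes LINC01021, NEAT1, MALAT1, PVT1, TP53TG1 and KCNQ1OT1 were followed through an experiment on the p53 response. They were taken by gene symbol, which gave 6 rows of the 26485 gene rows in each of the 2 deposited tables, and they were chosen by their known nuclear location or link to p53 and by their measured levels and differences between Nutlin-3a and DMSO in water in these same libraries. The cells were HCT116, established from a colorectal carcinoma and wild type for p53. Their nuclei were isolated, and the RNA was depleted of ribosomal RNA and sequenced from directional libraries. All cells were electroporated and then kept for 3 hours in medium with 0.1% DMSO. The 4 conditions were water at the electroporation and DMSO alone (DMSO_H2O in the labels), peptide and DMSO alone (DMSO_Peg6), water and 10 µM Nutlin-3a (Nutlin_H2O), and peptide and 10 µM Nutlin-3a (Nutlin_Peg6). The peptide is a stapled peptide directed at the contact between p53 and Mediator, the coactivator complex that joins transcription factors to RNA polymerase II. It was given at 10 µM in the electroporation, with 200 nM more in the medium afterwards. Nutlin-3a frees p53 from MDM2, the ubiquitin ligase that holds its level down. Each condition had 2 libraries in experiment 1 and 3 in experiment 2, 20 in all, from 1 cell line. The labels do not say whether replicates were separate cultures, so the spread between them may be technical.

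Long noncoding RNAs act as RNA, and many stay in the nucleus near the site of their transcription or in nuclear bodies. NEAT1 is the scaffold of paraspeckles, bodies that hold RNA-binding proteins such as SFPQ and NONO, and it is a known transcriptional target of p53. MALAT1 is one of the most abundant nuclear RNAs and gathers at nuclear speckles, where splicing factors are stored. LINC01021, also named PURPL, is induced by p53 and is known to restrain the p53 level. PVT1 lies next to MYC, whose protein it has been linked to. KCNQ1OT1 is transcribed against KCNQ1 and silences its imprinted neighbours in cis. TP53TG1 was found as a p53-inducible transcript.

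The LINC01021 promoter is shown because it is the only member promoter searched that holds the p53 half-site consensus. Promoters run from 250 bases before to 50 bases after the annotated start and come from RefSeq (GRCh38.p14), where LINC01021 is listed as PURPL. The stretch is chr5:27472042-27472341 on the plus strand, and the capitals mark 2 half-sites of 10 bases that follow each other with a spacer of 0 bases.
LINC01021 promoter: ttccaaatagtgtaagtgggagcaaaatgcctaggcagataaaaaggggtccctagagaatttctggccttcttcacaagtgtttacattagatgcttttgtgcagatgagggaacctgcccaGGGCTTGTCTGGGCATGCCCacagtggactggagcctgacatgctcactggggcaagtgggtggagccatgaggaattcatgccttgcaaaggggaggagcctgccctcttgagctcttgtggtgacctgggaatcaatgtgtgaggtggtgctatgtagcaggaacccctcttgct
The first half-site reads GGGCTTGTCT and begins at position -127 from the start of transcription, and the second reads GGGCATGCCC. Both strands were searched for the half-site consensus with no mismatch, and for pairs of half-sites at most 13 bases apart with up to 2 mismatches in all. A perfect pair was found in 10 of 35116 promoters of the same length (0.0285%), among them that of the DNA repair gene DDB2. A single perfect half-site was present in 6.63% of promoters and a pair with up to 2 mismatches in 7.82%. The promoter of TP53TG1 and both listed promoters of MALAT1 held no half-site and no pair. Of the 5 members searched, 3 were matched to the promoter table. NEAT1 and KCNQ1OT1 were not matched, and PVT1 was not searched. A match describes the letters in this window and no binding was measured.

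Levels are given as RPM, the reads of a row per 1000000 reads in all gene rows. The rows differ in what they cover, on hg38. That of LINC01021 (NR_038848) spans chr5:27472292-27496401 on the plus strand, the whole annotated gene of 24110 bases with its introns. NEAT1 (NR_028272) is covered by chr11:65422798-65426532, only 3735 of the 22767 bases that GENCODE gives the gene, so the row holds the 5′ part that the short and the long isoform share. MALAT1 (NR_002819, chr11:65497762-65506512) and KCNQ1OT1 (NR_002728, chr11:2608328-2699998, minus strand) are covered nearly whole. PVT1 (NR_003367, chr8:127890628-128101253) is covered from a start well inside the gene, which GENCODE begins at 127794533. TP53TG1 (NR_015381) spans chr7:87325348-87345492 on the minus strand.

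Libraries of experiment 1 had 36717795 to 63896604 reads in gene rows, those of experiment 2 had 18787172 to 47407746. The experiments were unlike in composition. Structural RNA rows took 30.2% to 50.8% in experiment 1 against 1.98% to 7.12% in experiment 2. Rows that span at least 100 kb took 9.40% to 18.9% and 8.47% to 10.5%. In experiment 1 the second Nutlin_H2O library stood apart: it had the highest structural share and the lowest share of long rows, and it correlated with its replicate at 0.955, against 0.992 to 0.997 in the other 3 conditions. In experiment 2 the libraries fell together by replicate number, and those with number 2 stood apart for several members. Of 6 epithelial markers 5 had a mean of at least 0.5 RPM, among them EPCAM with 256 RPM and the keratin gene KRT8 with 1383 RPM, while the intestinal marker VIL1 had 0.191 RPM. Of the markers of other cell types, the leukocyte gene PTPRC had 0.0272 RPM and the fibroblast gene COL1A2 had 0.00105 RPM, while COL1A1 had 31.9 RPM and the neuronal gene SYT1 had 169.9 RPM. In bulk RNA, fewer cells that express a gene and less RNA per cell cannot be told apart.

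Per kilobase of row, the order of the members' levels was the same in both experiments. The median was 399 RPM per kb for MALAT1 in experiment 1 and 947 in experiment 2, followed by NEAT1 with 50.4 and 37.2 RPM per kb. PVT1 came next with 5.61 and 0.603 RPM per kb, then KCNQ1OT1 with 0.664 and 0.381, and LINC01021 with 0.0614 and 0.225. In experiment 1 no 2 neighbours in this order overlapped over the 8 libraries. In experiment 2 the ranges of PVT1 (0.357 to 0.791 RPM per kb), KCNQ1OT1 (0.106 to 0.652) and LINC01021 (0.117 to 0.525) overlapped, so the order of these 3 did not stand clear of the spread between libraries. MALAT1 ranked between 1 and 113 among all rows in experiment 2. The rows of the spliced genes LINC01021 and PVT1 include their introns, which lowers a value per kb, while NEAT1, MALAT1 and KCNQ1OT1 are mainly unspliced RNAs.

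**Figure D1:**
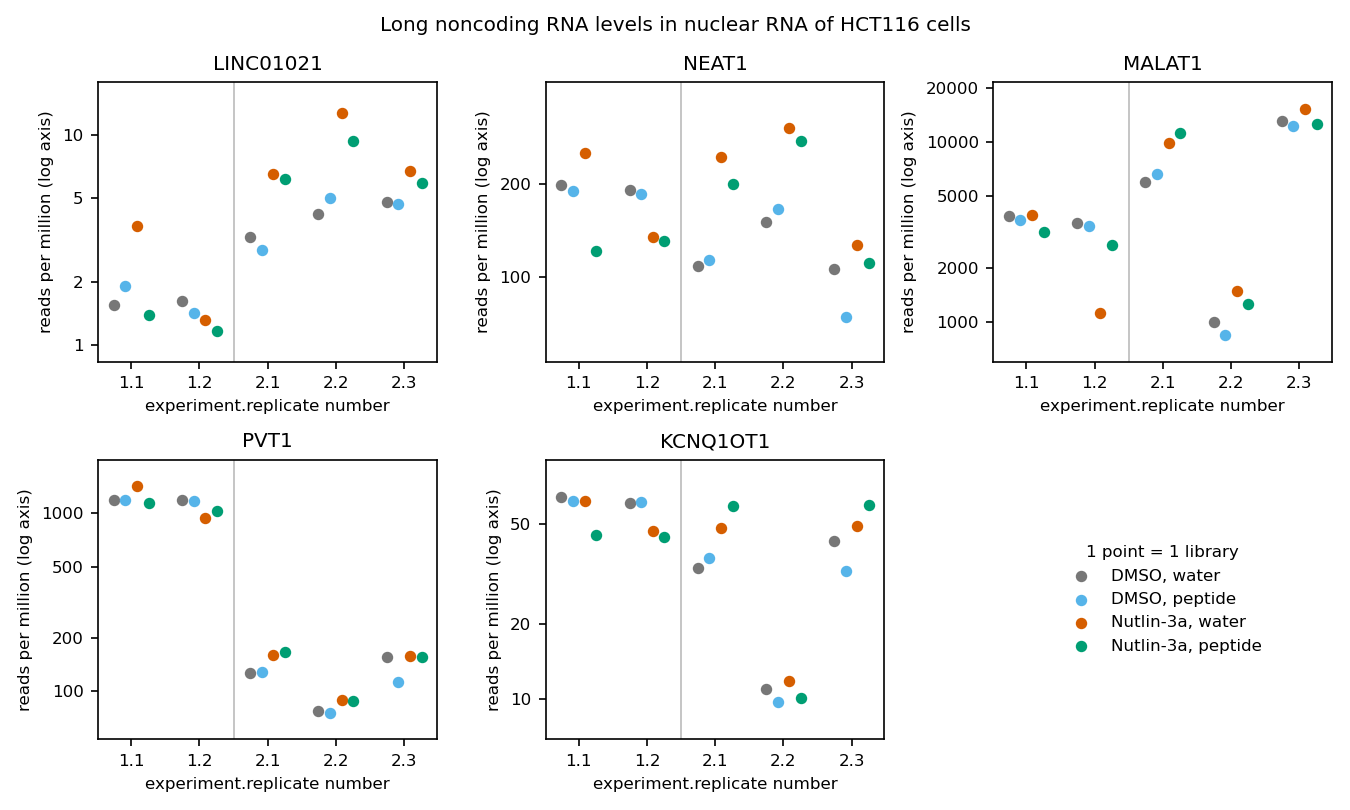
Level of each of 5 long noncoding RNAs in RPM (log axis) in every library, placed by experiment and replicate number (1.2 is experiment 1, replicate 2) and coloured by condition. In experiment 2 the 4 libraries with replicate number 2 are the lowest for MALAT1, PVT1 and KCNQ1OT1, and PVT1 lies at 944 to 1428 RPM in experiment 1 and at 75.3 to 166.5 RPM in experiment 2.

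LINC01021 was higher with Nutlin-3a than with DMSO in all 3 pairs of experiment 2, where pairs are libraries with the same replicate number. In experiment 2 it measured 3.25, 4.20 and 4.81 RPM in DMSO_H2O and 6.51, 12.7 and 6.71 RPM in Nutlin_H2O. The lowest Nutlin-3a library lay above the highest DMSO library, and the means were 4.09 ± 0.782 and 8.63 ± 3.50 RPM (SD, n = 3), a ratio of 2.11. Every Nutlin_H2O library lay above every DMSO_H2O library in experiment 2 for 1.83% of the 15958 rows tested. In experiment 1 it measured 1.55 and 1.62 RPM in DMSO_H2O and 3.67 and 1.31 RPM in Nutlin_H2O. The groups overlapped there, since only the first Nutlin-3a library was high and the second was the library that stood apart. These values rest on 57 to 284 reads per library, so counting error alone is a visible part of the spread.

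Over both experiments LINC01021 was 0.73 ± 0.24 higher on the log2 scale in Nutlin_H2O (SE, limma on log2 of scaled RPM with 0.5 added), a factor of 1.66. This fit has a term for the experiment. With the replicate block, which has terms for the replicate numbers of each experiment instead, the SE was 0.18. The difference was above 0 in 5 of 5 pairs, from 0.02 to 1.41, and in 4 of 5 pairs without scaling between libraries, where the second pair of experiment 1 stood at -0.23. Without the second Nutlin_H2O library of experiment 1 it was 0.87. Of all rows tested, 2.87% were higher and 4.51% lower in 5 of 5 pairs, and 0% passed limma's adjusted p in this comparison. Because the members were chosen with this comparison known, no test is given for them here and their counts are a description.

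NEAT1 also lay higher with Nutlin-3a in experiment 2, at 246, 306 and 127 RPM against 109, 151 and 106 RPM. Each Nutlin_H2O library was above its pair, but the third (127 RPM) lay below the second DMSO library (151 RPM), so the groups overlapped. In experiment 1 NEAT1 measured 254 and 135 RPM in Nutlin_H2O and 199 and 191 RPM in DMSO_H2O, with 1 library above and 1 below both controls. The fitted difference was 0.48 ± 0.31 (log2, SE) with the experiment term and ± 0.18 with the replicate block. It was above 0 in 4 of 5 pairs, with -0.17 in the second pair of experiment 1. By experiment it was 0.10 in experiment 1 and 0.73 in experiment 2.

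MALAT1, the speckle RNA, differed more between replicate numbers than between these conditions in experiment 2. It measured 6024, 999 and 13181 RPM in DMSO_H2O and 9904, 1486 and 15419 RPM in Nutlin_H2O of experiment 2, with every Nutlin-3a library above its pair. In experiment 1 it measured 3884 and 3567 RPM in DMSO_H2O and 3929 and 1122 RPM in Nutlin_H2O. The fitted difference was -0.01 ± 0.82 (log2, SE) with the experiment term and ± 0.22 with the replicate block. Of 5 pairs 4 lay above 0, and the second pair of experiment 1 stood at -1.34. Without that Nutlin_H2O library the fitted difference was 0.30.

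PVT1 moved little. It measured 126, 77.4 and 155 RPM in DMSO_H2O and 159, 89.7 and 158 RPM in Nutlin_H2O of experiment 2, and the groups overlapped. In experiment 1 it measured 1188 and 1184 RPM in DMSO_H2O and 1428 and 944 RPM in Nutlin_H2O, 1 library on either side of the controls. The fitted difference was 0.12 ± 0.22 (log2, SE) with the experiment term and ± 0.08 with the replicate block. The 5 pairs, all above 0 after scaling and 4 of 5 without it, ran from 0.01 to 0.30. MYC, the neighbour of PVT1, differed by -0.05 ± 0.26 with the experiment term, above 0 in 1 of 5 pairs.

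KCNQ1OT1 measured 33.3, 11.0 and 42.9 RPM in DMSO_H2O and 48.4, 11.8 and 49.2 RPM in Nutlin_H2O of experiment 2. In experiment 1 it measured 64.4 and 60.8 RPM against 61.7 and 46.8 RPM with Nutlin-3a. The groups overlapped in both experiments. The fitted difference was 0.10 ± 0.50 (log2, SE) with the experiment term and ± 0.13 with the replicate block, with 3 of 5 pairs above 0. KCNQ1, the channel gene that contains the row on the other strand, differed by -0.11 ± 0.44, and CDKN1C, a cell cycle inhibitor gene of the same imprinted domain, by 0.01 ± 0.55.

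TP53TG1 was near absent. Of 738663418 reads in the 20 libraries, 1 fell in its row, in the first DMSO_H2O library of experiment 1 (0.0272 RPM), and 19 libraries had 0. A count of 0 allows up to 3 reads, which is 0.0470 to 0.160 RPM depending on the library, and this limit covers counting error only. No difference between conditions was detectable at this depth, and the row did not enter the tests. CROT, a peroxisomal carnitine acyltransferase gene that begins 142 bases away on the other strand, was also near 0, with 20 reads in all, 11 libraries at 0 and means of 0.0442 RPM (experiment 1) and 0.00578 RPM (experiment 2). The nearest row on the other side, TMEM243, 105.844 kb away, measured 20.6 RPM in both experiments.

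The known p53 targets gave the scale for these values. CDKN1A, the gene of the cell cycle inhibitor p21, differed by 1.16 ± 0.29 and MDM2 by 0.95 ± 0.54 (log2, SE), each above 0 in 5 of 5 pairs. Neither passed the test, and 0 of 15958 rows did in limma, with 100 rows at an unadjusted p under 0.05, while limma-voom with the replicate block called 9. Of 16 p53 target genes all 16 had a difference above 0 with a median of 0.81, and 13 were higher in all pairs, while the median of all rows was -0.03. The 937 rows tested that RefSeq lists as lncRNA had a median of 0.00, with 478 above 0 and 39 higher in all pairs. Over both experiments, LINC01021 (0.73) and the other 4 members tested lay below the median of the p53 target list. In experiment 1 that median was 0.97, and LINC01021 stood at 0.54 and NEAT1 at 0.10. In experiment 2 it was 0.55, below LINC01021 at 0.86 and NEAT1 at 0.73 and above MALAT1, PVT1 and KCNQ1OT1. The order of LINC01021 and NEAT1 against the list thus depended on the experiment.

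With peptide present, Nutlin-3a was compared with DMSO in other libraries than those of the comparison in water. LINC01021 measured 2.82, 4.97 and 4.68 RPM in DMSO_Peg6 and 6.16, 9.32 and 5.86 RPM in Nutlin_Peg6 of experiment 2. The groups did not overlap, as for 1.49% of rows tested in this comparison, and the ratio of means was 1.71. In experiment 1 it measured 1.91 and 1.41 RPM in DMSO_Peg6 and 1.39 and 1.16 RPM in Nutlin_Peg6, where both Nutlin-3a libraries lay below both controls, as for 43.4% of rows. After scaling between libraries these were 2.14 and 1.60 in DMSO_Peg6 and 1.70 and 1.48 in Nutlin_Peg6, and the groups overlapped. The fitted difference over both experiments was 0.31 ± 0.24 (log2, SE) with a 95% interval from -0.19 to 0.81 and an adjusted p of 1.00 in limma over all rows.

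NEAT1 showed the same split by experiment. It measured 113, 167 and 74.5 RPM in DMSO_Peg6 and 201, 277 and 111 RPM in Nutlin_Peg6 of experiment 2, higher in each pair although the groups overlapped. In experiment 1 it measured 190 and 187 RPM in DMSO_Peg6 and 122 and 131 RPM in Nutlin_Peg6, lower in both. The fitted difference was 0.20 ± 0.31 (log2, SE; adjusted p = 1.00 in limma), made of -0.44 in experiment 1 and 0.63 in experiment 2.

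KCNQ1OT1 measured 36.6, 9.69 and 32.4 RPM in DMSO_Peg6 and 59.1, 10.1 and 59.8 RPM in Nutlin_Peg6 of experiment 2, and 61.6 and 61.0 RPM against 45.0 and 44.4 RPM in experiment 1. As with LINC01021 and NEAT1, every pair of experiment 1 was lower and every pair of experiment 2 higher, a pattern that 9% of the rows tested had. The difference between experiments was 0.81 ± 0.48 for LINC01021, 1.07 ± 0.63 for NEAT1 and 0.78 ± 1.10 for KCNQ1OT1 (log2, SE), and none passed limma's test, as 0.00627% of rows did (adjusted p = 1.00 for each, and 0.305, 0.139 and 0.207 with the replicate block). In experiment 1 the Nutlin_Peg6 libraries had 16.6% and 13.8% of reads in rows of at least 100 kb and the DMSO_Peg6 libraries 18.6% and 17.1%, and the part of this in the result was not tested.

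MALAT1 measured 6669, 840 and 12282 RPM in DMSO_Peg6 and 11223, 1262 and 12642 RPM in Nutlin_Peg6 of experiment 2, and 3703 and 3421 RPM against 3152 and 2686 RPM in experiment 1. Its difference was 0.17 ± 0.82. PVT1 measured 128, 75.3 and 112 RPM in DMSO_Peg6 and 167, 88.0 and 155 RPM in Nutlin_Peg6 of experiment 2, and 1198 and 1179 RPM against 1144 and 1034 RPM in experiment 1. It had 4 of 5 pairs above 0 and a difference of 0.17 ± 0.22 with the experiment term and ± 0.08 with the replicate block (log2, SE; unadjusted p = 0.0430 and adjusted p = 1.00 in limma with the block). In this comparison 0% of rows passed the adjusted p, 1.62% were higher and 3.16% lower in all pairs, and no member was either.

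**Figure D2:**
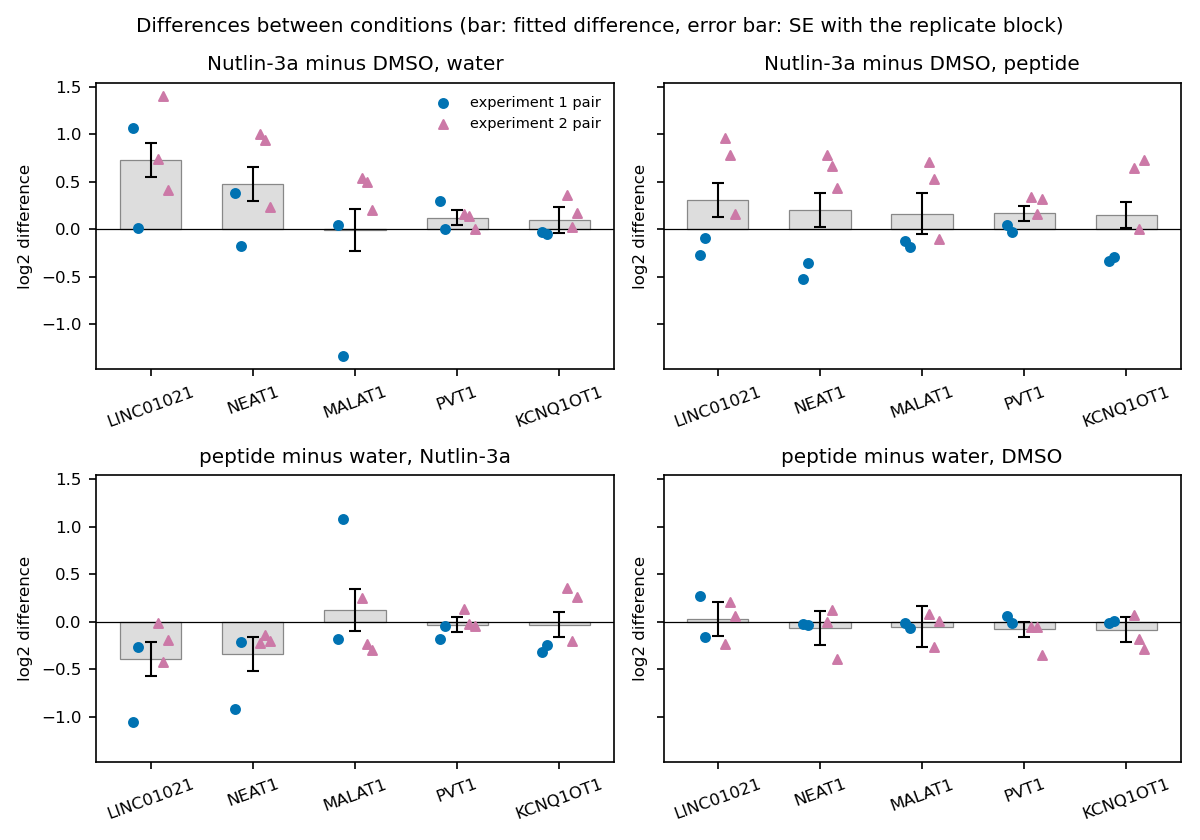
Log2 differences of 5 long noncoding RNAs in 4 comparisons. Bars are the fitted differences over 20 libraries, error bars are SE with the replicate block, circles are the 2 pairs of experiment 1 and triangles the 3 pairs of experiment 2. With peptide, Nutlin-3a minus DMSO is below 0 in experiment 1 and above 0 in experiment 2 for LINC01021, NEAT1 and KCNQ1OT1.

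The effect of the peptide under Nutlin-3a was read from Nutlin_Peg6 against Nutlin_H2O. These share the Nutlin_H2O libraries with the comparison that chose the members, so that for members chosen as high in Nutlin_H2O a value below 0 here is favoured by the choice, and the directions and p-values support nothing by themselves. LINC01021 was lower with peptide in 5 of 5 pairs, from -1.06 in the first pair of experiment 1 to -0.01 in the first of experiment 2, and in 4 of 5 with median-of-ratios scaling. The fitted difference was -0.39 ± 0.24 (log2, SE) with a 95% interval from -0.89 to 0.11, and it did not pass (adjusted p = 1.00 in limma, and 0.602 with the replicate block, where the unadjusted p was 0.0438). NEAT1 was lower in 5 of 5 pairs as well, from -0.92 to -0.14, with a fitted difference of -0.34 ± 0.31 (adjusted p = 1.00, and 0.602 with the replicate block). Of all rows tested, 2.53% were lower and 4.86% higher in all pairs, and 0% passed the adjusted p. By experiment, LINC01021 stood at -0.66 in experiment 1 and -0.20 in experiment 2, and NEAT1 at -0.57 and -0.19.

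The other 3 members had no common direction under Nutlin-3a. MALAT1 differed by 0.13 ± 0.82 (log2, SE), and without the second Nutlin_H2O library of experiment 1 by -0.18. The PVT1 difference was -0.03 ± 0.22 and that of KCNQ1OT1 -0.03 ± 0.50, with 1 and 2 of 5 pairs above 0. In the p53 target list 15 of 16 genes lay below 0 with a median of -0.41, and 6 were lower in all pairs. All 16 had lain above 0 in Nutlin_H2O against DMSO_H2O, and the Nutlin_H2O libraries are shared with that comparison. Values below 0 are thus favoured for the list, with CDKN1A and MDM2 in it, and support nothing by themselves. Of all rows tested, 60.9% lay above 0. By experiment the median of the list was -0.92 in experiment 1 and -0.06 in experiment 2. CDKN1A differed by -0.73 ± 0.29 and MDM2 by -0.46 ± 0.54, both below 0 in 5 of 5 pairs, and neither passed the test. In experiment 1 CDKN1A stood at -1.65 and MDM2 at -1.10, and in experiment 2 at -0.11 and -0.03.

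Without Nutlin-3a the peptide left the 5 members close to their levels in water. The differences of DMSO_Peg6 from DMSO_H2O lay between -0.08 and 0.03 (log2), and no member had the same direction in all pairs, while 5.86% of rows were higher and 3.28% lower in all pairs and 0% passed the adjusted p. With the replicate block, which takes out the spread between replicate numbers, the 95% intervals were -0.34 to 0.41 for LINC01021, -0.44 to 0.31 for NEAT1, -0.51 to 0.41 for MALAT1, -0.24 to 0.09 for PVT1 and -0.36 to 0.20 for KCNQ1OT1. Without it that of MALAT1 was -1.76 to 1.66. In the p53 target list all 16 genes lay above 0 with a median of 0.13, and 7 were higher in all pairs. Of all rows tested, 60.0% lay above 0. The DMSO_H2O libraries are shared with the comparison in water, in which all 16 were higher with Nutlin-3a. Values above 0 are thus favoured for the list and support nothing by themselves. The difference in the response to Nutlin-3a with and without peptide subtracts the same Nutlin_H2O minus DMSO_H2O difference that chose the members, which favours values below 0 for those chosen as high. It was -0.42 ± 0.34 for LINC01021 and -0.27 ± 0.44 for NEAT1 (log2, SE), each below 0 in 4 of 5 pairs, and 0.17, 0.05 and 0.05 for MALAT1, PVT1 and KCNQ1OT1 (adjusted p = 1.00 in limma for all 5). No member had the same sign in all pairs, 1.74% of rows were higher and 1.83% lower in all pairs, and 0% passed.

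How the members varied together depended on how the values were centred. Over the 20 libraries, each value taken from the mean of its experiment, log2 levels of MALAT1, PVT1 and KCNQ1OT1 correlated at 0.88 to 0.95, and LINC01021 with NEAT1 at 0.72. Correlations of either LINC01021 or NEAT1 with any of the other 3 lay between -0.50 and -0.16. Libraries share depth, composition and replicate number, so these are descriptions. Within experiment 2 the correlations among MALAT1, PVT1 and KCNQ1OT1 were 0.91 to 0.97. Within experiment 1 they were 0.04 to 0.17, while LINC01021 correlated with PVT1 at 0.92 and NEAT1 with KCNQ1OT1 at 0.83.

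In experiment 2, replicate number 2 carried that pattern. MALAT1 measured 840 to 1486 RPM in its 4 libraries, 6024 to 11223 RPM in those of number 1 and 12282 to 15419 RPM in those of number 3, so no 2 numbers overlapped, whatever the condition. The whole range was 18.4-fold. KCNQ1OT1 measured 9.69 to 11.8 RPM with number 2 and 32.4 to 59.8 RPM with number 3, and PVT1 75.3 to 89.7 RPM against 112 to 158 RPM. NEAT1 went the other way, with 151 to 306 RPM in number 2 and 74.5 to 127 RPM in number 3, again without overlap. Ribosomal protein rows took 5.15% to 6.51% of reads with number 2, 9.83% to 12.02% with number 1 and 6.70% to 8.17% with number 3. Long rows took 9.21% to 10.5%, 8.76% to 9.67% and 8.47% to 9.71%, and the part of these shares in the pattern was not tested.

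With each value taken from the mean of its replicate number instead, all 10 correlations between members were positive. LINC01021 and NEAT1 correlated at 0.89, either of them with MALAT1, PVT1 or KCNQ1OT1 at 0.45 to 0.74, and those 3 among themselves at 0.35 to 0.65. NEAT1 stood second among 11837 rows in likeness to LINC01021. By the first measure, centred on the experiment, the rows most like LINC01021 were SESN1 (r = 0.89), a p53 target that damps mTORC1 signalling, the death receptor gene FAS (0.84) and the decapping factor gene DCP1B (0.82). Those most like NEAT1 were SUSD6 (0.91), TRIM66 (0.91) and MDM2 (0.89). Centred on the replicate number they were instead AHSA2 (0.91), RGS20 (0.90) and SLC35E3 (0.88), none of them in the p53 target list. SESN1, FAS and MDM2 are in the p53 target list used here. Of these, only SESN1 stayed among the 3 rows most like its member when values were centred on the replicate number. Likeness was taken over libraries that include the Nutlin_H2O and DMSO_H2O libraries that chose the members. For members chosen as high with Nutlin-3a, likeness to each other or to p53 targets is favoured by the choice and supports nothing by itself. MALAT1 was most like GLCCI1 (0.99), FAAH2 and NAALADL2, PVT1 most like DNAH10 (0.98), SLC4A5 and CUBN, and KCNQ1OT1 most like SLC4A5 (0.99), SPDYA and the antisense RNA TPT1-AS1. SLC4A5, a bicarbonate transporter gene, stood in both of these last lists. Centring on the replicate number gave other rows for MALAT1, PVT1 and KCNQ1OT1.

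PVT1 set the experiments apart more than any other member tested. It averaged 1163 RPM over the libraries of experiment 1 and 124 RPM over those of experiment 2, 9.36 times as high in the first, with no overlap between the 8 and the 12 libraries. KCNQ1OT1 was 1.65 times and NEAT1 1.06 times as high in experiment 1, while LINC01021 was 3.42 times and MALAT1 2.41 times as high in experiment 2. These ratios are of RPM without scaling between libraries, and no test of them was made. In the fits RPM was divided by a scaling factor, 0.698 to 0.923 in experiment 1 and 0.986 to 1.25 in experiment 2. Such scaling makes the ratios of PVT1, KCNQ1OT1 and NEAT1 larger and those of LINC01021 and MALAT1 smaller. MYC, beside PVT1, did not follow it: the DMSO_H2O means were 314 ± 19.8 RPM (SD, n = 2) in experiment 1 and 393 ± 112 RPM (SD, n = 3) in experiment 2. Rows of at least 100 kb took a median share of 17.3% in experiment 1, against 9.54% in experiment 2, and the part of this in the difference was not tested.

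**Figure D3:**
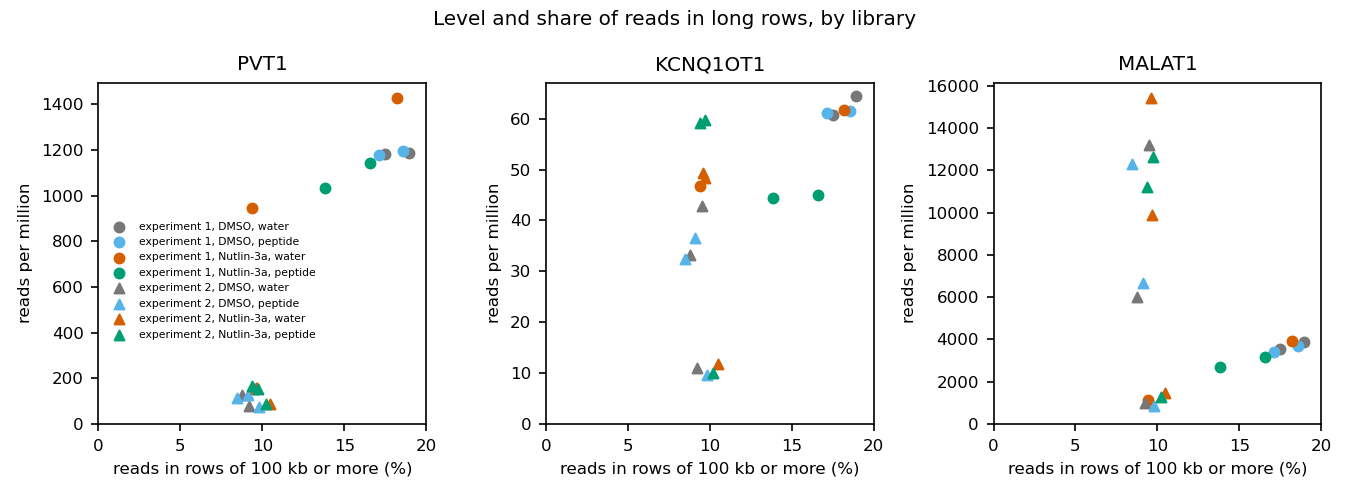
Level of PVT1, KCNQ1OT1 and MALAT1 (RPM, linear axis from 0) against the percentage of reads in rows of at least 100 kb, 1 point per library, circles for experiment 1 and triangles for experiment 2. In experiment 1 the Nutlin_H2O library at 9.40% has the lowest PVT1 and MALAT1 values (944 and 1122 RPM), and in experiment 2 the levels vary widely at nearly the same percentage.

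Rows on the opposite strand inside members were far lower than the members, which bears on whether strands were counted apart. TMEM75, inside PVT1 on the minus strand, had a mean of 0.0282 RPM per kb in experiment 1, where PVT1 had a median of 5.61. KCNQ1 had 19.5 RPM over its whole span of 403013 bases in experiment 1, or 0.0484 RPM per kb, although it contains the whole of KCNQ1OT1, which had 55.7 RPM. The KCNQ1 row thus did not hold the reads of KCNQ1OT1. Short microRNA rows on the members' own strand read parts of the host genes, and reads of host and microRNA precursor cannot be told apart there. MIR612, a row of 100 bases at chr11:65444458-65444557, lies in the 3′ part of NEAT1 that GENCODE gives the gene and the NEAT1 row leaves out. It had a mean of 47.8 RPM per kb in experiment 1 and 15.0 in experiment 2, where the NEAT1 row had medians of 50.4 and 37.2. Means and medians of rows so unlike in length are not like measures, so isoform shares cannot be read from them. In experiment 2 MIR612 measured 0.0525 to 0.580 RPM (1 to 15 reads) in the 4 libraries with replicate number 2. These lay below all libraries of number 1 (1.85 to 3.32 RPM) and number 3 (1.09 to 3.01 RPM). The NEAT1 row was higher in number 2 than in number 3, so the 2 ends of the gene were ordered in opposite ways. With Nutlin-3a in water MIR612 differed by 0.01 ± 0.48 (log2, SE), against 0.48 ± 0.31 for the NEAT1 row, and the difference between the rows was not tested.

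In PVT1, MIR1204 (chr8:127795962-127796028) lies in the 5′ part of the gene that GENCODE includes and the PVT1 row leaves out. Its means were 3.82 RPM (experiment 1) and 3.54 RPM (experiment 2), where the PVT1 row differed 9.36-fold. Inside the row, MIR1206 had 2.05 and 1.03 RPM, MIR1205 1.09 and 0.789 RPM, and MIR1207 0.997 and 1.18 RPM. None of these 4 short rows came near the 9.36-fold difference of the PVT1 row, and they rest on few reads, 12 to 351 per library for MIR1204. With Nutlin-3a in water MIR1204 differed by 0.33 ± 0.49, with 0.93 in experiment 1 and -0.08 in experiment 2.

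Genes that work with the members changed little with Nutlin-3a in water, and none passed the test, as 0 of 15958 rows did. In this comparison 41.6% of all rows tested lay above 0. Of 14 paraspeckle protein genes 12 lay below 0, with a median of -0.10 against -0.03 for all rows, and PSPC1, a core paraspeckle protein, stood at -0.23 ± 0.11 (log2, SE), below 0 in 5 of 5 pairs. TARDBP, the gene of TDP-43, stood at -0.26 ± 0.25 and HNRNPK at -0.16 ± 0.16. Of 17 nuclear speckle protein genes 13 lay below 0 with a median of -0.03, led by the splicing factor gene SRSF3 at -0.24 ± 0.16. By experiment the median of the paraspeckle list was -0.18 in experiment 1 and -0.04 in experiment 2. That of the speckle list was -0.24 and 0.02, so both leaned lower mainly in experiment 1. In the KCNQ1OT1 imprinted domain 7 of 10 genes were tested, 4 of them above 0, with CD81, a tetraspanin gene, at 0.22 ± 0.17. Of 6 partner genes 5 lay below 0, including the RNA methyltransferase gene METTL16 at -0.20 ± 0.19 and YBX1, which binds RNA and DNA, at -0.12 ± 0.32.

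Among other lncRNAs linked to p53, 4 were tested of 7 with a row. MIR22HG, the host gene of miR-22, had the same signs as LINC01021: its difference with Nutlin-3a in water was 0.45 ± 0.30 (log2, SE), above 0 in 5 of 5 pairs, and with peptide under Nutlin-3a it was -0.32 ± 0.30, below 0 in 5 of 5 pairs (adjusted p = 1.00 in limma for both). Its means in experiment 2 were 25.3 ± 13.02 RPM in DMSO_H2O and 39.2 ± 17.9 RPM in Nutlin_H2O (SD, n = 3). MIR22HG had the smallest p of this list with Nutlin-3a in water, and both differences use the Nutlin_H2O libraries. A value below 0 with peptide is thus favoured by the choice, and the shared signs support nothing by themselves. TUG1 stood at 0.05 ± 0.19 and LINC-PINT at -0.12 ± 0.15. Of all rows tested, 41.6% lay above 0 with Nutlin-3a in water. Of 27 further lncRNA genes tested 21 lay below 0 with a median of -0.08, which was -0.21 in experiment 1 and 0.01 in experiment 2. In all pairs 1 was higher and 3 were lower. The 1 was SNHG3, a small nucleolar RNA host gene, at 0.25 ± 0.17, and the 3 were CASC8 (-0.25 ± 0.14), OIP5-AS1 and SNHG6, of which OIP5-AS1 and SNHG6 are named after their values were seen. CASC15 stood at -0.33 ± 0.16. No gene of these lists was called by limma with the experiment term or with the replicate block in any of the 5 comparisons. The same held for all 15958 rows tested, so it says nothing particular about these lists.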

How the data were processed

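The authors deposited 1 table per experiment with 1 RefSeq isoform row per gene symbol. Per the submitters' processing notes, HISAT2, bedtools and limma were used with hg38. Strand handling is not given in the sources used here. The deposited signal values are reads per 1000000 (RPM) divided by the stop coordinate minus the start coordinate over 1000, as found from the values. Multiplying that quantity back gave RPM, from which 100% of values became whole reads (tolerance 0.001). Limma 3.58.1 in R 4.3.3 was run with a trend on log2 of RPM scaled by a trimmed mean of M values plus 0.5, with terms for condition and experiment, on the 15958 rows with a mean of at least 0.5 RPM (5 of the 6 members). Adjustment over all rows followed Benjamini and Hochberg, and a call is an adjusted p under 0.05. The script was tested on simulated data.

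Pairs are libraries with the same experiment and replicate number. No label states the pairing. Deviations from condition means correlated at 0.877 to 0.940 for the same number and -0.53 to -0.37 for other numbers in experiment 2, and at 0.286 to 0.586 in experiment 1, where 2 replicates mirror each other. A fit with these 5 blocks stands beside the first where it matters. The members and lists were chosen with earlier results of these data known. Named genes are the members, up to 3 genes per list and comparison by p, neighbours of the members, and the 3 rows most correlated with each among rows of at least 5 RPM. Likeness centred on the replicate number was added afterwards. Other settings were other scalings, filters and pseudocounts, limma-voom, structural rows left out, each experiment alone, and each library left out.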

Additional observations from a re-analysis of the deposited data

How the results depend on the processing

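No row was called in any of the 5 comparisons in limma, with 100 rows at an unadjusted p under 0.05 for Nutlin-3a in water, 77 for peptide under Nutlin-3a, 16 for peptide under DMSO, 26 for Nutlin-3a with peptide and 26 for the difference in response. With the replicate block the counts of calls were also 0, with 1219, 1300, 167, 292 and 288 rows at an unadjusted p under 0.05, and with limma-voom on recovered reads and the block 9, 3, 0, 7 and 4 rows were called. Without a filter 1 row was called for Nutlin-3a with peptide. Experiment 1 alone gave 1 call each for peptide under DMSO, Nutlin-3a with peptide and the difference in response, and the block without the second Nutlin_H2O library of experiment 1 gave 5 for Nutlin-3a in water. Leaving out 1 library in turn gave 0 calls in each comparison.

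The difference between experiments gave 0, 0, 1, 1 and 1 calls in the same order. These became 0 for the last 3 without structural rows, 1 and 1 for the first 2 and 2 for the last without a filter, and 0 for peptide under DMSO and for the difference in response with a pseudocount of 5. Limma-voom gave 0 for the difference in response. The replicate block gave 3, 54 and 6 calls for Nutlin-3a in water, peptide under Nutlin-3a and Nutlin-3a with peptide, and with limma-voom 4, 42, 2 and, for the difference in response, 2. Leaving out 1 library gave 0 to 154, 0 to 20, 1 to 2, 1 to 4 and 0 to 4 calls, and the first 2 were highest without the first Nutlin_H2O library of experiment 1. The cause was not tested.

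For Nutlin-3a in water all 164 values of the members moved by less than the SD between replicates in the fit with the experiment term. That SD holds the differences between replicate numbers, so the count says little about stability. With 1 library left out the values ran from -0.58 to 0.46 for MALAT1, -0.21 to 0.45 for KCNQ1OT1, -0.0041 to 0.27 for PVT1, 0.32 to 0.68 for NEAT1 and 0.58 to 0.87 for LINC01021, so the sign of the first 3 could change. In the other comparisons 12 to 22 of 164 values changed sign. In experiment 1 alone, Nutlin-3a with peptide gave -0.18 for LINC01021, -0.44 for NEAT1, -0.15 for MALAT1 and -0.31 for KCNQ1OT1, peptide under DMSO gave 0.029 for PVT1, and the difference in response gave -0.14 for PVT1 and -0.28 for KCNQ1OT1. In experiment 2 alone, peptide under Nutlin-3a gave -0.093 for MALAT1, 0.023 for PVT1 and 0.14 for KCNQ1OT1, and the difference in response -0.037 for MALAT1. The block without the second Nutlin_H2O library of experiment 1 gave -0.18 for MALAT1 with peptide under Nutlin-3a and -0.13 for its difference in response.

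With 1 library left out, the difference in response ran from -0.48 to 0.75 for MALAT1, -0.10 to 0.18 for PVT1, -0.30 to 0.43 for KCNQ1OT1, -0.59 to -0.26 for LINC01021 and -0.50 to -0.12 for NEAT1. Nutlin-3a with peptide ran from -0.47 to 0.72 for MALAT1, -0.016 to 0.36 for NEAT1, -0.19 to 0.54 for KCNQ1OT1, 0.04 to 0.31 for PVT1 and 0.16 to 0.42 for LINC01021, whose lowest value was without the second Nutlin_Peg6 library of experiment 2. Peptide under DMSO ran from -0.63 to 0.60 for MALAT1, -0.063 to 0.17 for LINC01021, -0.18 to 0.16 for NEAT1, -0.21 to 0.062 for PVT1 and -0.39 to 0.27 for KCNQ1OT1. Peptide under Nutlin-3a ran from -0.33 to 0.67 for MALAT1, -0.17 to 0.10 for PVT1 and -0.37 to 0.35 for KCNQ1OT1, while LINC01021 (-0.55 to -0.22) and NEAT1 (-0.56 to -0.17) kept their sign. These ranges come from the fit with the experiment term, where a library left out leaves its pair incomplete. In that fit the SE for Nutlin-3a in water was 0.82 for MALAT1 and 0.50 for KCNQ1OT1. With the replicate block it was 0.22 and 0.13. The spread between replicate numbers thus limits the precision of the first fit, beside the number of libraries. For LINC01021 low read counts limit it too.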
